A study of Mus musculus with 9 samples.

Results

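The strongest chromatin peaks retrieved with probes against the long noncoding RNA Gm4665 are described here. They are the intervals of the deposited Gm4665 peak list on chromosomes 1 to 19 whose lowest fold enrichment over input among the 3 replicates was 30 or more, and which did not overlap an interval of the control list by 1 bp. The rule left 1308 peaks of 38827 intervals in the list. On chromosomes 1 to 19 the list held 37617 intervals. Of these, 1324 (3.52%) reached the fold in every replicate, and 16 of them overlapped a control interval and were left out. The 1308 peaks were selected on their folds, so fold, width and pileup are given as a description and were not tested.

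The study asked where the Gm4665 RNA contacts chromatin in male germ cells. There were 3 groups of 3 samples: chromatin captured with biotinylated Gm4665 probes, chromatin captured with LacZ probes as the control, and input DNA. LacZ is a bacterial gene that mice lack. Germ cells of all 3 groups were isolated from the testes of ICR mice, wild-type and at postnatal day 35. In the titles and the files' columns the RNA is named LncRNA-20, and the protocol of the same samples names Gm4665. The labels leave unsaid whether each replicate is its own animal, and the spread may be technical. The lists hold no expression values, and the labelled cell type could not be checked against marker genes.

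A long noncoding RNA can stay near the place where it is made, or bind chromatin elsewhere through proteins or through pairing with DNA. Capture with antisense oligonucleotides retrieves the RNA with the DNA cross-linked to it, and the same oligonucleotides can also hybridise directly to the RNA's own gene. Fold enrichment is the authors' value of each peak: the signal of 1 capture library over input, on a linear scale. At this age the testis holds spermatogonia, meiotic spermatocytes and spermatids beside the somatic Sertoli and Leydig cells.

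RefSeq promoter windows (GRCm38.p6, from 250 bases before to 50 after a start site) were at hand for the chromosomes that carry 1259 of the strongest peaks. Of those peaks, 24 contained at least 1 whole window, and 34 windows in all. The 6 windows below are shown because each lies wholly inside a strongest peak and together they span the set: the captured RNA's own gene, the highest other lncRNA promoter, the highest coding promoters, and those nearest a peak summit. Each reads 5′ to 3′ on its gene's strand. Capitals mark a GC box (GGGCGG), an E-box (CACGTG) or a TATA box (TATAAA), searched on both strands, and a window without capitals held none of these letters.
Gm4665, chr9:115186052-115186351, minus strand: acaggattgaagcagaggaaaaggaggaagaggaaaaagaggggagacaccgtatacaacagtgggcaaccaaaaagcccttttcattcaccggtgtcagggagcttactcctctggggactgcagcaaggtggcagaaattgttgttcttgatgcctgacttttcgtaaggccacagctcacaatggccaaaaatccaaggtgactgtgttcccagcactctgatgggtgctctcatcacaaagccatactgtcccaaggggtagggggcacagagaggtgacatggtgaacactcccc
Gm36304, chr5:100217698-100217997, minus strand: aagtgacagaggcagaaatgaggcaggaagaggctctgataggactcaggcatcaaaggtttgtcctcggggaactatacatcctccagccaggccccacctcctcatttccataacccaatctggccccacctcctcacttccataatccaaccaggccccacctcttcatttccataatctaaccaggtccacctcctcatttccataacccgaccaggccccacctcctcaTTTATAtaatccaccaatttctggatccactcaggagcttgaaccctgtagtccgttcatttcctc
Neurog1, chr13:56252131-56252430, minus strand: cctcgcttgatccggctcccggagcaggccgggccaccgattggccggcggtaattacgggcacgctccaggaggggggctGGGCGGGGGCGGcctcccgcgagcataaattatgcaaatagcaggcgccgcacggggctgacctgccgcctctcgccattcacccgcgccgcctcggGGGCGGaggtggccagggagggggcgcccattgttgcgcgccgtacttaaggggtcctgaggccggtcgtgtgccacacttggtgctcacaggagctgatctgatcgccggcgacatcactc
Llph, chr10:120226810-120227109, plus strand: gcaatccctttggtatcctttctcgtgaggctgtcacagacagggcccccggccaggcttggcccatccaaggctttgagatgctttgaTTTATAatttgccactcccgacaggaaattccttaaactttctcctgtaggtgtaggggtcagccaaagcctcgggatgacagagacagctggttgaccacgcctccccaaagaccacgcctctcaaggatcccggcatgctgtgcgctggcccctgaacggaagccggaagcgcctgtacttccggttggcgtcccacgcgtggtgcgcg
Klc4, chr17:46646031-46646330, minus strand: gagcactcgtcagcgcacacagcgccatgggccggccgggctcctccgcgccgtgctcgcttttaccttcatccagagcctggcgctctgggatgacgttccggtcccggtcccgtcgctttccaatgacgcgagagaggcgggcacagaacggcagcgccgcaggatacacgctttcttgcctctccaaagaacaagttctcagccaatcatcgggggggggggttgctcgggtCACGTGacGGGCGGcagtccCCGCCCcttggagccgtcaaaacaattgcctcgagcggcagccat
Brinp3, chr1:146497437-146497736, plus strand: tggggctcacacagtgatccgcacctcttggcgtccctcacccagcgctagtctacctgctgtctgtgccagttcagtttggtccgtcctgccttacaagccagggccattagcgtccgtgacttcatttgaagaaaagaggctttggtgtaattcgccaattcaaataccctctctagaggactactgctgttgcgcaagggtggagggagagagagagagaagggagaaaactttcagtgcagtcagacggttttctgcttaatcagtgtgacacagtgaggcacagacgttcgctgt

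The start site of Gm4665 lay 263 bp upstream of the summit of its peak. For Gm36304, an uncharacterised lncRNA, the summit was 50 bp upstream of the start. The peak at Neurog1, which encodes a proneural transcription factor, had its summit 816 bp upstream. At Llph the summit was 118 bp downstream of the start. The peak at Klc4, a kinesin light chain gene, had its summit 3 bp upstream of the Klc4 start and also held the windows of Mrpl2, a mitochondrial ribosomal protein gene transcribed the other way. The windows of these genes share bases, so their motif matches are not separate. Brinp3, a gene expressed mainly in neurons, was met at a start site inside the annotated gene, 29 bp from the summit. Over the 34 windows, 12 (35.3%) held a GC box, against 36.0% of all 31396 windows. An E-box was in 4 (11.8%), against 7.14%, and all 4 were the overlapping windows of Klc4 and Mrpl2. A TATA box was in 4 (11.8%), against 13.6%. GAGAGAGA and CACACACA were each in 1 window (2.94%), against 3.96% and 4.14%. TGACGTCA, the cyclic AMP response element, and TTAGGGTTAGGG, the telomere repeat, were in 0 windows, against 1.83% and 0.0127%. Median GC content was 51.5% in the 34 windows and 53% in all windows. The 34 windows come from 24 peaks and are not independent. The 5 windows of 1520401A03Rik, for example, are shifted by only a few bases.

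One strongest peak covered a germ cell microRNA locus. It ran from chr13:113036915-113037915 inside Cdc20b and contained the hairpin of Mir449a, with the hairpin of Mir449c 824 bp away. Its folds were 42.5, 35.3 and 39.2 in replicates 1, 2 and 3 (mean 39.0 ± 3.60, SD, n = 3). The microRNAs of this cluster and of the miR-34 family share a seed and are known in mouse for joint roles in spermatogenesis and in motile cilia. The mature sequences below (RefSeq, GRCm38.p6) are shown for that shared seed, bases 2 to 8, in capitals. Only the first lies inside the peak.
miR-449a-5p: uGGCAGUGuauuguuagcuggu
miR-449c-5p: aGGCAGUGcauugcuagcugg
miR-34a-5p: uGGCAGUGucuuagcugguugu
miR-34b-5p: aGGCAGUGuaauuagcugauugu

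Folds were higher in replicate 1 than in the others across the set. The median fold over the 1308 peaks was 49.3, 38.4 and 44.4 in replicates 1, 2 and 3 (mean 44.1 ± 5.45, SD, n = 3). Over all 37274 autosomal Gm4665 peaks without LacZ overlap it was 11.4, 8.50 and 10.3 (mean 10.1 ± 1.46, SD, n = 3). Replicate 1 was the highest of the 3 at 903 peaks (69.0%), against 56.3% over all those peaks. Replicate 2 was the lowest at 886 (67.7%), against 62.8%. Replicate 2 therefore set the threshold value for most members. With the other 2 replicates alone, 2285 peaks passed, against 1362 without replicate 1 and 1475 without replicate 3. The ratio of the highest to the lowest replicate fold had a median of 1.33, against 1.53 over all those peaks, and its maximum in the set was 2.79. Spearman's rho across the 1308 peaks was 0.612 for replicates 1 and 2, 0.585 for 1 and 3 and 0.540 for 2 and 3, over peaks that share their libraries, against 0.821, 0.829 and 0.782 over all peaks. The set has no folds under 30, which narrows the range over which its correlations were taken.

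Depth was read from the peak pileup, the read coverage at the summit, which follows replicate 1. Its median was 157 reads (93 to 468), against 37 over all those peaks. The Poisson interval of 157 reads at 95% confidence is 133 to 184 and covers counting error only. Library totals were not used here.

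The lowest replicate fold of the members had a median of 37.1, with quartiles of 33.0 and 42.9 and a maximum of 118. The 3 members just inside the threshold had lowest folds of 30.01, 30.02 and 30.02. They lay on chromosome 3 from 121624464, inside Ptprm, a receptor tyrosine phosphatase gene, and inside Ghr, the growth hormone receptor gene. The 3 intervals just outside it had 29.95 each. They lay on chromosome 1 from 151228999, on chromosome 3 from 83603921, and inside Wtap, whose product belongs to the m6A methyltransferase complex. The interval on chromosome 3 from 121624464 had 59.5, 30.01 and 53.4 in the 3 replicates, and that at Wtap had 33.6, 29.95 and 33.7. Replicate 2 was the lowest in both.

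Width followed fold within the set, and both come from the same capture signal. The median width was 1479 bp (701 to 26929 bp), against 584 bp over all those peaks, and Spearman's rho between width and lowest fold was 0.483 across the 1308 peaks. Only 3 of the 37274 peaks were wider than 5000 bp, and all 3 were members: Rai14 at 26929 bp, Gm4665 at 26100 bp and Sun5 at 6436 bp. The next widest were Gabbr2, a GABA-B receptor subunit gene, at 4358 bp, and Sema3e, a secreted guidance semaphorin gene, at 4033 bp. Gabbr2 was high in replicates 2 and 3, with folds of 46.7, 96.6 and 73.0.

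**Figure D1:**
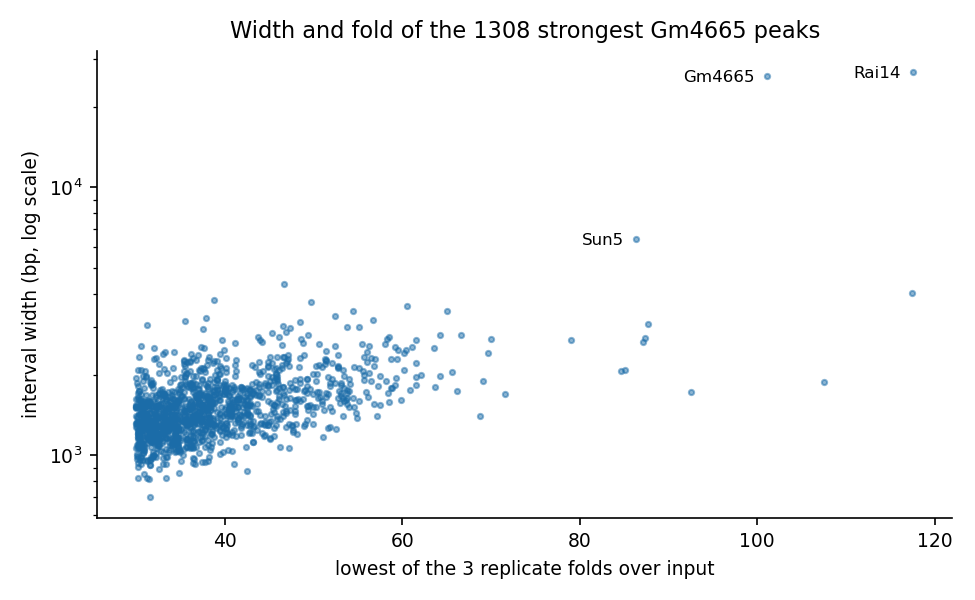
Interval width in bp (vertical, log scale) against the lowest of the 3 replicate folds over input (horizontal) for the 1308 strongest Gm4665 peaks, 1 point per peak. Rai14 and Gm4665 stand at 26929 and 26100 bp, Sun5 at 6436 bp, and all other members lie under 5000 bp.

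At Gm4665 itself (gene 100043812, chr9:115178427-115186101) the peak ran over chr9:115165775-115191874 with folds of 128.5, 101.1 and 119.7 (mean 116 ± 14.0, SD, n = 3). The whole gene lies inside that interval, and both lie within the longer protein-coding gene Osbpl10 (chr9:114978485-115233273). The probes match the DNA of Gm4665, so RNA-mediated and direct retrieval cannot be told apart here. Whether other peaks share sequence with Gm4665 was not examined. The nearest other strongest peak on chromosome 9 was 784534 bp from Gm4665. It ran from 114392713 with folds of 46.7, 37.8 and 39.0. Within 1 Mb of the gene there were 4 strongest peaks, the one at Gm4665 included, among 38 LacZ-free peaks, and within 10 Mb there were 18 among 365. Chromosome 9 as a whole held 84 strongest peaks, 4.13% of its LacZ-free peaks (95% Wilson interval 3.35% to 5.09%). Over all autosomes the share was 3.51%. Shares of the other chromosomes ran up to 4.35% on chromosome 1 and down to 2.65% on chromosome 17. Per megabase, chromosome 9 had the highest density of strongest peaks, 0.691 against 0.544 over all autosomes, and chromosome 17 the lowest, 0.435.

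The strongest peaks were spread over gene ends, gene bodies and intergenic sequence in nearly the proportions of the list they came from. A peak was placed at a gene end when its midpoint lay within 2 kb of an annotated gene start or end, otherwise inside a gene, otherwise outside genes. At gene ends there were 163 of 1308 (12.5%, 95% Wilson interval 10.8% to 14.4%), against 13.1% of all 37274. Inside genes there were 616 (47.1%, 44.4% to 49.8%), against 44.5%. Outside genes there were 529 (40.4%, 37.8% to 43.1%), against 42.5%. In each class the interval of the strongest peaks held the share of the whole list, which includes those peaks. Peaks from the same libraries are not independent, and the difference was not tested. Among the 36 peaks with a lowest fold of 60 or more, 5 were at gene ends (13.9%), 12 inside genes (33.3%) and 19 outside (52.8%). Of the 849 between 30 and 40, the shares were 13.4%, 45.9% and 40.6%.

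**Figure D2:**
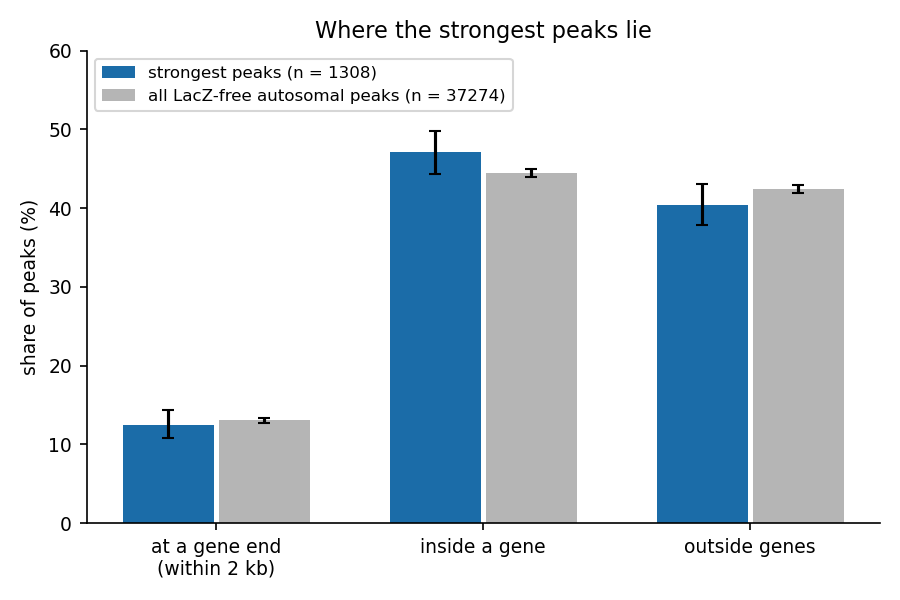
Share of peaks (%) at a gene end, inside a gene and outside genes, for the 1308 strongest Gm4665 peaks (blue) and all 37274 autosomal Gm4665 peaks without LacZ overlap (grey). Error bars are 95% Wilson intervals, and the bars of the 2 sets differ by under 3 percentage points in each class.

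The class was also counted by which replicate was lowest. At the 108 peaks where replicate 1 was the lowest, 61.1% lay inside genes and 9.26% at gene ends. At the 886 where replicate 2 was lowest, 46.4% and 12.2% did, and at the 314 where replicate 3 was lowest, 44.3% and 14.3% did. These 3 sets are defined by the folds and their shares are given without a test. The same split was not made over the whole list, so no background share stands beside them.

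The strand of the gene, where a promoter window gave it, showed which end was met. Of the 163 peaks at gene ends, 109 had such a gene. The midpoint was near the 5′ end at 49 of them (45.0%), near the 3′ end at 51 (46.8%), and near both at 9 (8.26%). Over the whole LacZ-free list the shares were 45.1%, 46.0% and 8.86% of 3093 peaks. With protein-coding genes alone, 32 of 62 (51.6%) were at a 5′ end and 27 (43.5%) at a 3′ end, against 45.2% and 46.5% of 1942. Peak summits lay within 1 kb of a start site at 37 of the 1259 peaks (2.94%), against 2.68% of the list, and within 100 bp at 7 (0.556%), against 0.312%. The median distance from summit to nearest start was 32916 bp, against 34906 bp. A whole promoter window was contained in 1.91% of the strongest peaks, against 0.562% of all, and the strongest peaks were also wider.

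By gene, 184 of 46710 autosomal genes (0.394%) had a strongest peak at a gene end. Without replicate 2 there were 320. Of the 163 peaks, 72 (44.2%) were at a protein-coding gene, 59 (36.2%) at a lncRNA gene and 26 (16.0%) at a pseudogene, against 50.3%, 33.9% and 14.4% over the whole list. A peak can be at more than 1 gene.

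The 15 highest of these peaks, in the order of their lowest fold, began with Gm4665 and the pseudogene Gm19143. The Gm19143 peak had 114.6, 87.4 and 115.6 (mean 106 ± 16.0, SD, n = 3). It also lies inside Grin2a, which encodes an NMDA receptor subunit, and a control peak was listed 8687 bp away with folds of 47.6, 20.5 and 27.1 in the LacZ replicates.

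Sun5, which encodes a nuclear envelope protein that couples the sperm head to the tail, had 91.0, 86.4 and 107.7 (mean 95.1 ± 11.2, SD, n = 3). Its peak lay over the 3′ end of the gene, chr2:153852086-153858521, with the summit 127 bp past that end and 15304 bp from the 5′ end. Daw1, a factor in the assembly of ciliary dynein arms, had 77.2, 60.2 and 67.4 (mean 68.3 ± 8.51, SD, n = 3). Its peak, chr1:83207620-83209695, was also at the 3′ end, with the summit 1887 bp short of that end and 48948 bp from the 5′ end. Both summits were thus far from the 5′ ends of these genes.

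Among coding genes met at the 5′ end, Chst11, a chondroitin sulfotransferase gene, had 73.7, 56.0 and 60.9 (mean 63.5 ± 9.12, SD, n = 3). The peak shared by Rc3h2, which encodes the RNA-binding protein Roquin-2, and the zinc finger gene Zbtb6 had 67.2, 50.3 and 55.5. It lay at the 5′ end of Rc3h2 and the 3′ end of Zbtb6. Met at the 3′ end, Slc17a2, a sodium phosphate transporter gene, had 64.1, 53.4 and 63.7. Sdf2, which encodes an endoplasmic reticulum protein, had 60.2, 52.8 and 55.8 at its 3′ end. Pifo, a gene of the primary cilium, had 66.0, 49.7 and 62.1 at its 3′ end. Replicate 1 was the highest in all 5 of these peaks, though level with replicate 3 at Slc17a2.

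The other 6 of the 15 were at uncharacterised genes. The peak shared by 2310034O05Rik and Gm36304 had a mean of 67.3 ± 9.15, Gm11729 71.7 ± 12.3, Gm38498 64.6 ± 7.57 and Gm41019 62.9 ± 5.83. Gm52719 had 60.5 ± 6.40, and Gm51552 had 55.5 ± 5.37 (SD, n = 3 each). The Gm51552 peak was the only one of the 15 in which replicate 1 was lowest, with 49.3, 58.8 and 58.4.

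**Figure D3:**
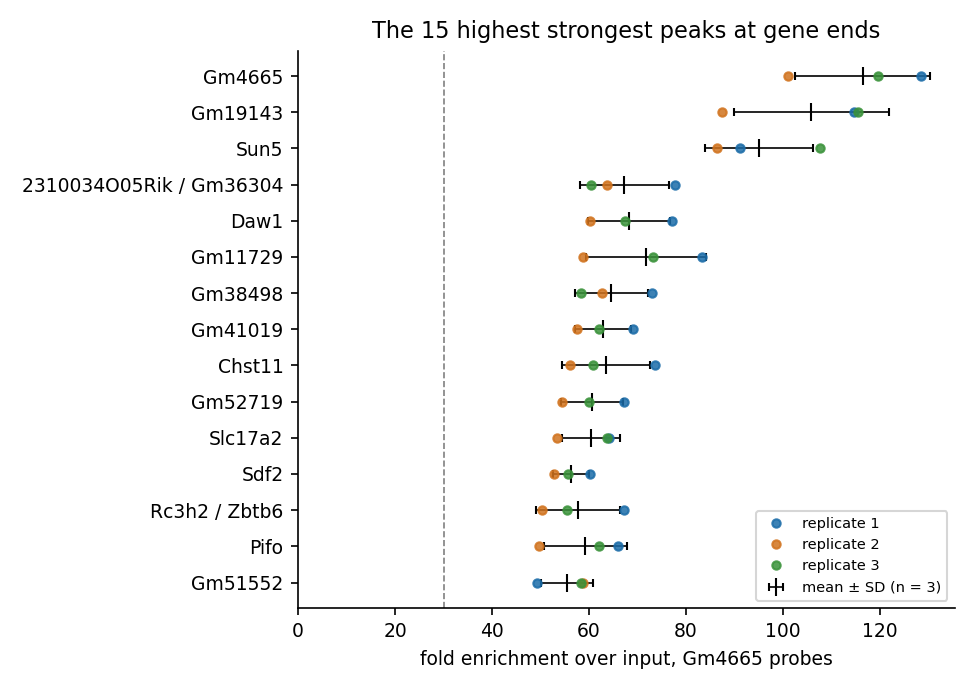
Fold over input (horizontal) in replicates 1, 2 and 3 of the Gm4665 capture for the 15 highest strongest peaks at gene ends, in the order of their lowest fold. Coloured points are replicates, black bars the mean ± SD (n = 3), and the dashed line is the threshold of 30. The 3 uppermost, Gm4665, Gm19143 and Sun5, have every replicate at 86.4 or above, and the highest replicate of the others is 83.2.

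Inside genes, Rai14 led by its lowest fold. Its product is an ankyrin repeat protein found on actin. The peak, chr15:10568392-10595320, had 143.2, 125.5 and 117.6 (mean 129 ± 13.1, SD, n = 3). Its midpoint is inside the gene, but it covers the 3′ end of Rai14, chr15:10568971-10719267 on the minus strand. The summit lay 21869 bp from the 3′ end and 128427 bp from the 5′ end. The peak contained no whole promoter window. A control peak was listed 2758 bp away, with folds of 14.4, 4.09 and 6.88 in the LacZ replicates.

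Sema3e had 117.4, 143.5 and 166.5 (mean 143 ± 24.6, SD, n = 3), with the summit 25622 bp downstream of the start of the 231414-bp gene. Stx11, a syntaxin gene of immune cell granule release, had 117.6, 107.5 and 114.7 (mean 113 ± 5.23). Ryr2, the cardiac calcium release channel gene, had 121.1, 85.0 and 84.7. At Sema3e replicate 3 was highest, at Ryr2 replicate 1, and at Stx11 the replicates lay close together.

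Gm27211 had a mean of 75.5 ± 9.95, and Celf2, a splicing regulator gene, 75.3 ± 11.7. Fbxo25, an F-box gene, had 72.9 ± 9.66 and Csmd1, a complement control gene, 68.5 ± 4.38 (SD, n = 3 each). The peak in Vcan, the versican gene, and the overlapping Gm4117 had 75.8, 61.1 and 75.7, with its summit 2645 bp from the 5′ end of Vcan. Insr, the insulin receptor gene, had 142.9, 130.3 and 65.0 (mean 113 ± 41.8, SD, n = 3), with replicate 3 far below the others.

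Outside genes, the 5 highest peaks lay 3358 to 112906 bp from the nearest annotated gene. The peak on chromosome 18 from 55305675 had 110.8, 92.5 and 99.1 (mean 101 ± 9.27, SD, n = 3) and lay 112906 bp from the nearest gene, Gm34233. That on chromosome 4 from 130884684 had 87.7, 88.1 and 94.6, and was 13329 bp from Gm35294. That on chromosome 10 from 12175031 had 139.5, 87.2 and 121.7, and was 87951 bp from Gm40601. That on chromosome 1 from 157668946 had 102.0, 85.7 and 85.1, and was 48509 bp from Gm34423. That on chromosome 4 from 123752312 had 144.9, 79.1 and 105.3 and was 3358 bp from Akirin1, which encodes a nuclear factor.

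Replicates differed most at Il20, a cytokine gene, where the 3 folds were 85.2, 74.1 and 30.6, a ratio of 2.79. Next were Itpr1, an inositol trisphosphate receptor gene, with 75.01, 55.1 and 32.9, Gm46633 with 71.9, 31.8 and 52.1, Insr, and the intergenic peak on chromosome 11 from 50582885 with 82.1, 54.3 and 37.5. In 4 of these 5 it was replicate 3 that was lowest. Replicates differed least at the intergenic peak on chromosome 2 from 30751153, with 54.6, 54.2 and 54.0. The ratio was 1.03 at Dnajc13, an endosomal co-chaperone gene, at Ahnak, a large scaffold protein gene, at the intergenic peak on chromosome 12 from 82164930, and at Nav2, a neuron navigator gene.

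Long genes more often held a strongest peak than short ones. Of 20556 autosomal protein-coding genes, 602 (2.93%) had a strongest peak in the gene or within 2 kb of it. The share was 0.508% of genes under 10 kb, 1.63% from 10 to 50 kb, 4.33% from 50 to 100 kb, 12.0% from 100 to 500 kb and 32.1% of the 215 genes of 500 kb or more. Per megabase of gene the density ran from 0.619 in the shortest to 0.427 in the longest, with 0.665 from 100 to 500 kb as the highest. The single coding hosts of strongest peaks inside genes had a median length of 144 kb, against 143 kb for all the peaks, and 63.0% of them exceeded 100 kb, against 60.8%. By position in the gene, split into 3 equal parts from the 5′ end, 31.4% of the 411 with a known strand were in the first part, 37.2% in the middle and 31.4% in the last, against 31.5%, 36.1% and 32.4% of 11068.

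**Figure D4:**
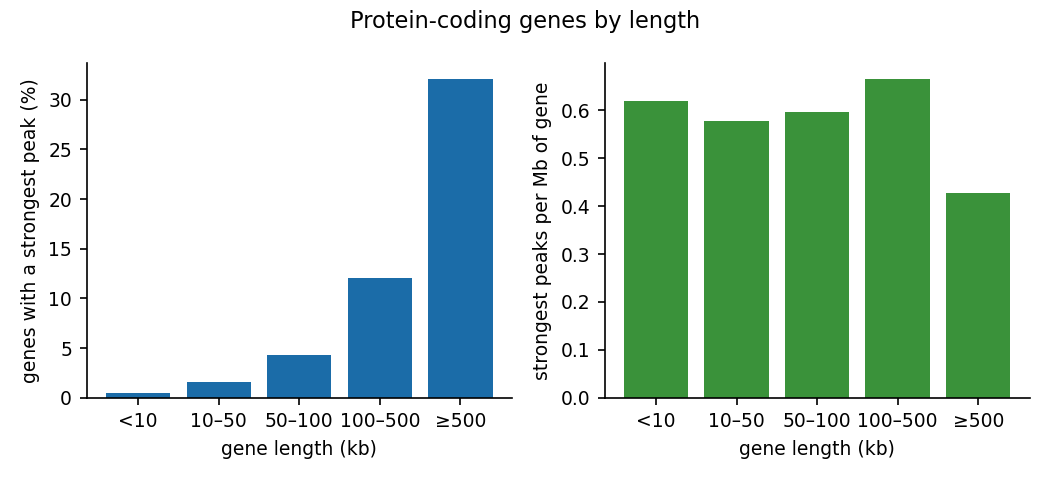
Left, share of autosomal protein-coding genes (%) with a strongest Gm4665 peak in the gene or within 2 kb, by gene length in kb. Right, strongest peaks per megabase of those genes. The share climbs to 32.1% in genes of 500 kb or more, while the density stays between 0.427 and 0.665 per megabase.

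Genes with 3 strongest peaks each were Atxn1, the ataxin-1 gene, Agap1, a GTPase-activating protein gene, and Rgs7, a regulator of G protein signalling. Their lengths were 415237, 440472 and 433787 bp. In Atxn1 the lowest folds of the 3 peaks were 35.7, 31.7 and 52.0, and in Rgs7 42.9, 38.2 and 43.2.

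Most strongest peaks had no other strongest peak within 100 kb. The median gap to the nearest other one was 548856 bp, and 183 (14.0%) had another within 100 kb. Without replicate 2, when the set was larger, 20.8% did. This share depends on how many peaks are chosen: it was 29.9% with a threshold of 20 and 3.70% with 40. The same share over the whole list was not computed. Joined at gaps of up to 100 kb, the strongest peaks formed 75 pairs, 7 runs of 3 and 3 runs of 4. The closest neighbours, 2070 bp apart, were on chromosome 3 from 149137425, with folds of 61.7, 46.3 and 48.1, and from 149140566, with 45.0, 35.7 and 30.1. The next were on chromosome 7 from 94000075 and 94004392 and a pair in Atxn1. The runs of 4 lay on chromosome 1, beginning in Sec16b, on chromosome 14 outside genes, and on chromosome 6 at Gm18912, Gm43979, Gm20951 and Gm44003. The chromosome 1 run contained the intergenic peak from 157668946 described above, with lowest folds in order along the chromosome of 32.6, 61.6, 85.1 and 43.2. On chromosome 6 they were 37.4, 43.2, 45.9 and 39.1. The number of weaker LacZ-free peaks within 100 kb had a median of 3, as it did for all peaks.

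The nearest control peak was at a median distance of 83764 bp, against 86717 bp over the list. Within 10 kb there was one for 104 members (7.95%), against 8.03%. The closest was at Zswim9, a zinc finger gene met at its 5′ end, with Gm4665 folds of 47.4, 38.0 and 50.6, beside a LacZ interval 16 bp away with folds of 36.9, 13.9 and 11.0. Those at Drd2, the dopamine D2 receptor gene, Gm20754 and Shld2, a DNA repair gene, lay 106, 111 and 226 bp away. Peaks named above with a control peak within 10 kb include Llph (1826 bp), the chromosome 12 peak from 82164930 (2588 bp) and Rai14 (2758 bp). Farther off were those at Chst11 (3314 bp), Gm36304 (4202 bp), Gm11729 (7385 bp), Gm19143 (8687 bp) and Vcan (8736 bp). The lists were normalized separately, so the 2 sets of folds are not compared as amounts of DNA. By the rule no LacZ interval overlaps any of the 1308 peaks, so the lists give no LacZ value at the peaks themselves.

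Testis genes were looked up in 11 lists covering germ cell stages, chromatin, apoptosis and somatic cells of the testis. Of their 533 autosomal genes, 3 had a strongest peak at a gene end: Sun5, Daw1 and Hsd3b6. Over all 46710 genes, noncoding genes and pseudogenes included, there were 184, and over the 20556 protein-coding genes 79. Without replicate 2 there were 5 listed genes. In the gene or within 2 kb, 24 (4.50%) had one, beside the 2.93% of all coding genes given above. The median length of the listed genes was 28.0 kb.

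The list of sperm flagellum and axoneme genes held 12 strongest peaks in 11 of 124 genes (8.87%), or 1.10 per megabase of gene, beside 0.591 over all coding genes. Its genes had a median length of 39.0 kb, and the count is small. All the lists were chosen with earlier results of these data known, and no share or density was tested. Beside Daw1, these were inside dynein genes: Dnah5, an outer arm heavy chain gene, with 56.1, 40.1 and 49.3, Dnah7b, an inner arm heavy chain gene, with 50.5, 32.3 and 31.7, and Dnaic1, an intermediate chain gene, with 40.5, 32.6 and 36.6. Cfap58, a flagellum gene, held 2, with means of 51.6 ± 4.14 and 45.5 ± 8.93. Its neighbour Cfap43 had 48.3 ± 4.63 (SD, n = 3 each), and the 3 peaks lay on chromosome 19 between 47780194 and 47971486. Cfap65 had 37.2, 55.3 and 53.8. The central apparatus genes Spag6l and Spag16 had means of 55.4 ± 7.87 and 34.0 ± 2.93. Efcab6 had 41.1 ± 1.25 (SD, n = 3 each), and Ift172, an intraflagellar transport gene, had 67.0, 40.7 and 36.3. Most peaks of this list, Ift172 included, were highest in replicate 1, as in the whole set. Cfap65 and Efcab6 were lowest in it.

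The share and the density varied from list to list, each on a small count. Among spermatogonial genes 1 of 30 had a strongest peak (3.33%, 0.481 per megabase of gene): Zbtb16, the stem cell factor PLZF, with 65.6, 53.4 and 61.3. Of 57 meiotic prophase genes, 1 had one (1.75%, 0.329 per megabase). The piRNA pathway keeps transposons silent in germ cells. Of its 29 listed genes 2 had one (6.90%, 1.47 per megabase). Tdrd5 had 47.1, 34.1 and 45.6 and Tex15 had 41.6, 38.8 and 39.9. Among spermatid transcription genes 3 of 33 had one (9.09%, 1.23 per megabase), Tdrd5 again, Sox5 (mean 40.2 ± 7.71) and Zfp541 (41.3 ± 3.30; SD, n = 3 each). Of 34 genes of chromatin condensation and head shaping, Sun5 alone had one (2.94%, 0.714 per megabase). None was listed in 52 acrosome and fertilization genes or in 50 apoptosis and p53 genes, whose median lengths were 11.2 and 17.3 kb.

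Among 87 chromatin regulators 3 had one (3.45%, 0.594 per megabase). Setdb1, an H3K9 methyltransferase gene, had 40.1, 36.4 and 40.3. Kdm6b, an H3K27 demethylase gene, had 46.7, 40.8 and 35.4, and the deacetylase gene Hdac4 held 2 peaks with means of 38.8 ± 6.42 and 34.9 ± 4.68 (SD, n = 3 each). Somatic genes were met as well. Of 27 Sertoli cell genes 2 had one (7.41%, 1.48 per megabase). Wt1, a transcription factor gene, had 50.5, 38.4 and 34.5, and Tjp1, a tight junction gene, had 42.3, 39.5 and 44.4. Of 27 genes of Leydig, peritubular, endothelial cells and macrophages 1 had one (3.70%, 0.764 per megabase). Hsd3b6, a steroid synthesis gene, had 39.2, 30.6 and 36.2 at a gene end.

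**Figure D5:**
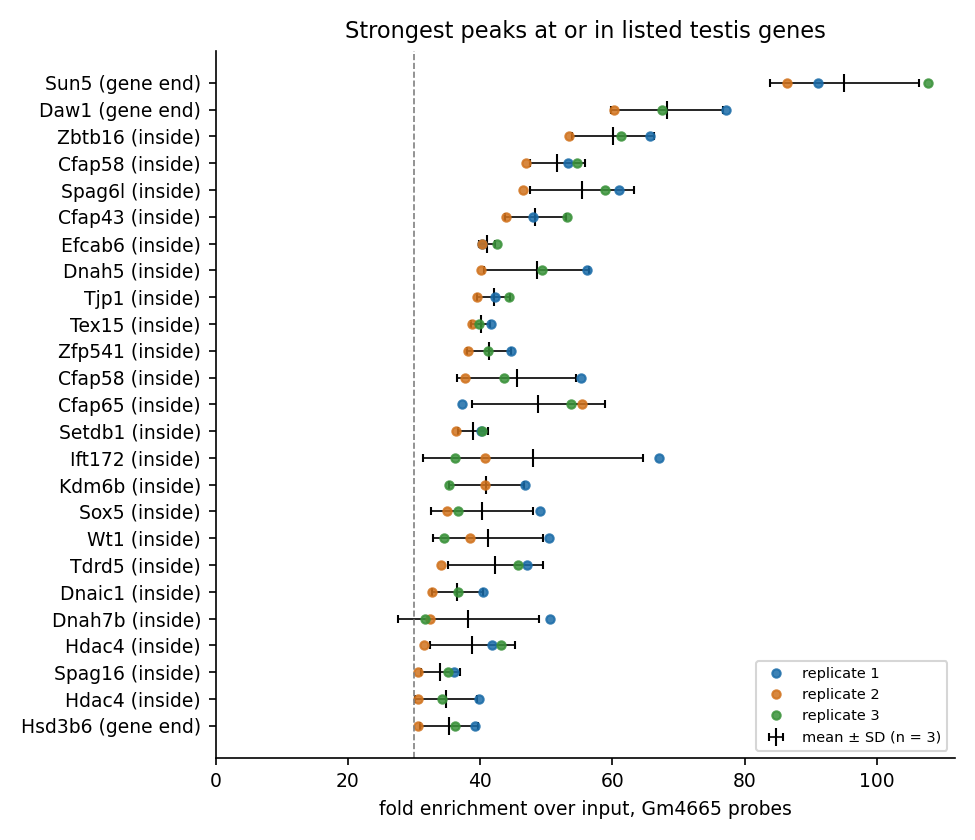
Fold over input (horizontal) in replicates 1, 2 and 3 of the Gm4665 capture for the 25 strongest peaks at or in the listed testis genes named in the text, in the order of their lowest fold. Coloured points are replicates, black bars the mean ± SD (n = 3), and the dashed line is the threshold of 30. Sun5 and Daw1 have the highest lowest folds, and Hsd3b6, Spag16 and 1 Hdac4 peak share the least, 30.6.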

How the data were processed

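Chromatin captured from mouse germ cells with Gm4665 or LacZ probes, and input, was sequenced as paired ends (per the labels' protocols). The authors deposited 2 MACS2 peak lists. Their aligner, caller version and settings were not given in the sources used here. Coordinates are mm10 (submitters' processing notes). Per the file headers, each row holds 1 linear fold enrichment (ratio) over input per replicate. The deposited pileup signal is the coverage at the summit, in reads, for 1 unnamed replicate. Dividing the replicate 1 fold by pileup plus 1 gave the maximum of that quotient, 0.341, to within 0.05%, at 17451 of the 37274 LacZ-free peaks. The same quotient of replicate 2 or 3 reached its own maximum at 1 peak each, so the pileup was read as that of replicate 1. Interval positions are 1-based.

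Repeated intervals (649 Gm4665 and 165 LacZ rows) were joined with the highest fold per replicate, which produced 77 of the members. The summit and pileup kept for a joined interval are those of its row with the highest replicate 1 fold. No replicate is named for the deposited summit, so summit distances may not hold in every replicate. Genes came from a RefSeq table of GRCm38.p6 (mm10) with 46710 autosomal genes. A further 328 entries below 3 Mb were left out. Strand and start sites came from 31396 RefSeq promoter windows, microRNAs from a RefSeq table. Chromosome 18 had no windows. Listed symbols were matched for 557 of 566 genes. One listed gene enters the counts, and its own values are not reported here. The genes named follow a rule: the 15, 10 and 5 highest peaks at gene ends, inside and outside genes, the 5 widest, the 5 largest and smallest replicate ratios, the 3 on either side of the threshold, genes of the lists, genes with 3 peaks and the closest groups. Named beyond that rule, after their values were seen, were the promoter windows printed, the microRNA locus and the peaks nearest a control peak. The members and lists were chosen with earlier results of these data known. No test across samples was made. Peak distance and placement code was tested on simulated data. Python 3.11.15, pandas 2.3.3, scipy 1.17.1 and matplotlib 3.10.9 were used.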

Additional observations from a re-analysis of the deposited data

How the results depend on the processing

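No paired analysis was possible because the results come from no test: the replicate folds chose the peaks. Of 91 alternatives over 11 results, 50 stayed within the range set for the main value: 1.5 times for a count, its 95% interval for a share or median. With a fold of 20 as the threshold there were 3770 peaks, with a median width of 1209 bp, a median ratio of 1.38, 560 genes at gene ends, 11 of them listed, and 29.9% with another peak within 100 kb. With 40 there were 459 peaks, 1701 bp, 1.29, 10.7% at gene ends, 58 genes and 3.70% with another within 100 kb. With the mean fold at 30 or more there were 2388 peaks, a median lowest fold of 30.9, 1350 bp, 1.42, 341 genes, 6 of them listed, and 21.6% within 100 kb. Gene-end windows of 1 kb gave 7.34% at gene ends, 50.1% inside genes and 105 genes, and windows of 5 kb gave 25.7%, 39.8%, 34.6% outside genes, 432 genes and 6 listed. Protein-coding genes alone gave 79 genes. Another peak within 20 kb had 2.45%, within 500 kb 47.6%. Requiring no LacZ interval within 10 kb gave a median LacZ distance of 95388 bp. Leaving out 1 replicate gave 1362 to 2285 peaks, median lowest folds of 37.1 to 37.6, widths of 1336 to 1464 bp, ratios of 1.13 to 1.26, 12.3% to 12.8% at gene ends, 44.9% to 48.1% inside and 39.3% to 42.8% outside genes, 199 to 320 genes, 3 to 5 listed, 14.1% to 20.8% within 100 kb, and LacZ distances of 82420 to 88022 bp; the highest counts were without replicate 2. Joining repeated intervals with the lowest fold gave no value outside the range. Sequence features of the peaks, among them bases shared with the Gm4665 gene, were not run, since no genome sequence was used here. Depth limits are those of a replicate 1 pileup; no library total was used.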

Other observations

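Of the 1324 autosomal Gm4665 intervals with a lowest fold of 30 or more, 16 (1.21%, 95% Wilson interval 0.745% to 1.95%) overlapped a LacZ interval and were left out of the set, against 327 of 36293 (0.901%) below that fold. The highest was inside the predicted gene Gm1604a, with Gm4665 folds of 58.1, 67.0 and 65.8 and LacZ folds of 26.9, 10.9 and 9.18. The next was inside Scn10a, a sodium channel gene of sensory neurons, with Gm4665 folds of 55.8, 58.0 and 58.0 and LacZ folds of 12.5, 8.18 and 5.12. Others lay inside Capzb, which encodes an actin capping protein subunit, with Gm4665 folds of 44.0, 44.0 and 52.99 and LacZ folds of 32.5, 17.7 and 14.7, and inside Trf, the transferrin gene, with Gm4665 folds of 56.5, 39.5 and 30.9 and LacZ folds of 7.27, 6.23 and 6.34. These were named after their values were seen, and the 2 lists were normalized separately.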
